A study of Mus musculus with 6 samples.

Results

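The 8 Gimap genes of the mouse encode GTPases of immunity-associated proteins, a family of small membrane-linked GTPases found mainly in lymphocytes. The members were taken by symbol from the deposited tables (Gimap1, Gimap3, Gimap4, Gimap5, Gimap6, Gimap7, Gimap8 and Gimap9), and they make up 8 of 23850 gene entries. Their messenger RNA was compared between 3 libraries of germinal centre B cells treated with CHIR99021 and 3 libraries treated with DMSO, the solvent. CHIR99021 blocks the kinases GSK3A and GSK3B and was labelled at 3 uM, and the label prints the same dose beside DMSO. Both groups came from wild-type C57BL/6J mice. In both, naive follicular B cells were first grown over CD40L-bearing feeder cells for 4 days in IL-4 (1 ng/ml), and the treatment then lasted 36 h on such feeders with IL-21 at 10 ng/ml. The cells were thus made in culture and were not taken from a germinal centre. The sources used here give neither the age nor the number of the mice.

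GIMAP proteins share a GTP-binding domain and sit on different internal membranes, where they are known for keeping resting lymphocytes alive and for setting when activated ones die. GIMAP5 acts at lysosomes, and mice and rats that lack it lose naive T cells. In mouse CD4 T cells it is also reported to hold GSK3 in an inactive state, which links the family to the kinase inhibited here. In mouse B cells, loss of GIMAP1 removes mature and activated cells. No role in germinal centre B cells is assumed for the other members.

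Levels are given as FPKM, fragments scaled for transcript length and library total, so that members can be compared with each other. A gene was tested when its mean over the 6 libraries was at least 1 FPKM, which all 8 members reached, as did 10096 entries in total. The log2 changes below are on the log2(FPKM + 1) scale, CHIR99021 against DMSO, and each adjusted p is limma's, by Benjamini-Hochberg over all 10096 tested entries with a threshold of 0.05. Levels are means with the SD over 3 libraries in each group. The labelled cell type was checked by its markers: the B cell genes Cd79a, Cd79b, Ms4a1, Pax5 and Cd22 summed to 1057 to 1310.4 FPKM in CHIR99021 libraries and 2302 to 3138 FPKM in DMSO libraries. The germinal centre genes Bcl6, Fas, Mef2b, S1pr2 and Gcsam summed to 76.1 to 94.9 FPKM in CHIR99021 libraries and 91.4 to 105 FPKM in DMSO libraries. Most of this sum came from Mef2b (45.1 FPKM in CHIR99021 and 48.0 FPKM in DMSO) and Fas (25.2 and 31.9 FPKM). Bcl6 had 4.55 FPKM in CHIR99021 and 7.18 FPKM in DMSO, and Gcsam 1.77 and 0.963 FPKM. Libraries with the same replicate number deviated together from their group means (correlations across genes of 0.490 to 0.535). A fit with the number as a block is therefore given where it changes the call of a Gimap gene or the count of a list. Of the 5 germinal centre genes, 1 (Fas) fell and 0 rose. With the block 2 (Fas and Bcl6) fell and 1 (Gcsam) rose. For comparison, 13.3% of all tested entries fell and 8.13% rose, or 24.4% and 18.4% with the block.

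With CHIR99021, 6 of the 8 Gimap genes fell and 0 rose, while 13.3% of all tested entries fell and 8.13% rose (21.4% in either direction). Those that fell were Gimap8, Gimap3, Gimap4, Gimap5, Gimap6 and Gimap9, which were 1.36-fold to 1.75-fold lower. The CHIR99021 and DMSO libraries did not overlap for any of these 6, which was also true in this direction of 23.1% of all tested entries, and in the other direction of 17.0%. Gimap1 and Gimap7 did not pass, and Gimap7 had the only positive change. The median log2 change of the members was -0.48, against -0.04 for all tested entries. With the replicate block 6 members fell and 1, Gimap7, rose, beside 24.4% and 18.4% of all tested entries (42.8% in either direction). In bulk RNA, a smaller share of cells that carry a transcript and less transcript per cell cannot be told apart.

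**Figure D1:**
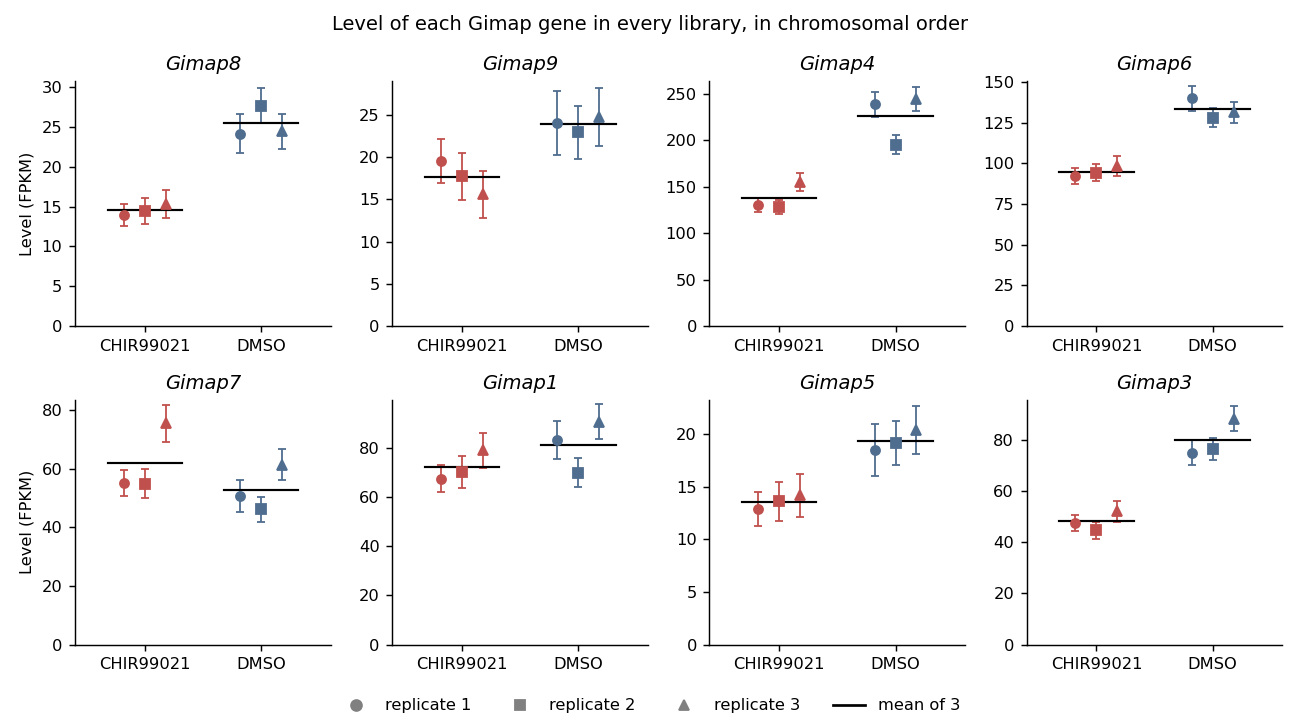
Level of each Gimap gene (FPKM, linear axes from 0) in the 3 CHIR99021 libraries (left) and the 3 DMSO libraries (right), with panels in chromosomal order. Symbols mark the replicate number, bars the authors' Cufflinks confidence limits within a library, and lines the group means. For 6 genes all CHIR99021 points lie below all DMSO points, while Gimap7 and Gimap1 overlap.

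Gimap4 was the most abundant member and one of the more abundant genes of these cells, with a mean level above 96.2% of tested entries. It encodes a protein that promotes the death of T cells in mice and rats. Its level was 131, 128 and 155 FPKM in CHIR99021 replicates 1, 2 and 3, against 239, 195 and 244 FPKM in DMSO replicates 1, 2 and 3. Every CHIR99021 library was below every DMSO library, and within each group replicate 2 was the lowest and replicate 3 the highest. Gimap4 fell by 0.71 ± 0.12 (SE) in log2 units (adjusted p = 0.00595), at 138 ± 14.8 FPKM in CHIR99021 and 226 ± 26.9 FPKM in DMSO.

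Gimap6 encodes a cytosolic member that binds the autophagy protein GABARAPL2. It had 92.1, 94.3 and 98.4 FPKM in the CHIR99021 libraries, against 140, 128 and 131 FPKM in the DMSO libraries. The groups were well separated and the spread within each was small. It fell by 0.48 ± 0.08 (SE) in log2 units (adjusted p = 0.00468), with means of 94.9 ± 3.17 FPKM in CHIR99021 and 133 ± 6.10 FPKM in DMSO.

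Gimap5 and Gimap3 are close relatives that act on lysosomes and mitochondria, and the human counterpart of Gimap3 is a pseudogene. Gimap5 was the least abundant member, at 12.9, 13.6 and 14.2 FPKM in CHIR99021 libraries against 18.5, 19.1 and 20.4 FPKM in DMSO libraries. It fell by 0.48 ± 0.09 (SE) in log2 units (adjusted p = 0.00901). Its differences between libraries of the same replicate number were the most even of the family, at -0.49, -0.46 and -0.50. Gimap3 had 47.6, 44.7 and 52.0 FPKM in CHIR99021 libraries against 75.0, 76.5 and 88.3 FPKM in DMSO libraries. It fell by 0.72 ± 0.10 (SE) in log2 units (adjusted p = 0.00251). The level of Gimap3 relative to that of Gimap5 was 3.55 ± 0.232 in CHIR99021 and 4.12 ± 0.177 in DMSO, and these ratios did not overlap between groups. In the GENCODE M21 transcripts, 7.52% of the 50-base stretches of Gimap3 and 4.53% of those of Gimap5 also occur in the other gene, so a small part of their reads could have been split between them.

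Gimap8 encodes a long protein with several GTPase domains and Gimap9 lies next to it. Gimap8 had 13.9, 14.5 and 15.3 FPKM in CHIR99021 libraries against 24.2, 27.7 and 24.5 FPKM in DMSO libraries. This was the largest change among the members, with a fall by 0.76 ± 0.09 (SE) in log2 units (adjusted p = 0.00175), and 5.89% of tested entries changed by as much or more in this direction. Gimap9 had 19.6, 17.8 and 15.6 FPKM in CHIR99021 libraries against 24.0, 22.9 and 24.8 FPKM in DMSO libraries. It fell by 0.42 ± 0.10 (SE) in log2 units (adjusted p = 0.0251), or 0.00857 with the replicate block. Its call rested on all libraries more than the others did: the adjusted p was 0.0668 without CHIR99021 replicate 2, 0.0944 without CHIR99021 replicate 3, 0.0635 without DMSO replicate 1 and 0.0856 without DMSO replicate 3.

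Gimap7 encodes a member that, in human cells, speeds the GTPase activity of its relatives by pairing with them. Its level was 55.2, 54.9 and 75.5 FPKM in CHIR99021 replicates 1, 2 and 3, against 50.7, 46.1 and 61.5 FPKM in DMSO replicates 1, 2 and 3. The groups overlapped, and replicate 3 was the highest library of each group, but in each replicate number the CHIR99021 library was the higher. The change was 0.22 ± 0.15 (SE) on the log2 scale (95% interval -0.14 to 0.58, adjusted p = 0.352), and Gimap7 rose with the replicate block (0.22 ± 0.06, adjusted p = 0.0264). Gimap1, a member that mouse B cells need, had 67.4, 70.1 and 79.0 FPKM in CHIR99021 libraries against 83.2, 69.8 and 90.6 FPKM in DMSO libraries. Here CHIR99021 was lower in replicate numbers 1 and 3 and level with DMSO in number 2. Its change was -0.16 ± 0.11 (SE, 95% interval -0.43 to 0.10, adjusted p = 0.360, or 0.111 with the replicate block). A change of the size seen for Gimap4 lies outside this interval, while one of the size seen for Gimap9 (-0.4235) lies just inside it (lower end -0.4290). With the replicate block the interval of Gimap1 was narrower, at -0.33 to 0.01, and changes of both sizes lie outside it.

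**Figure D2:**
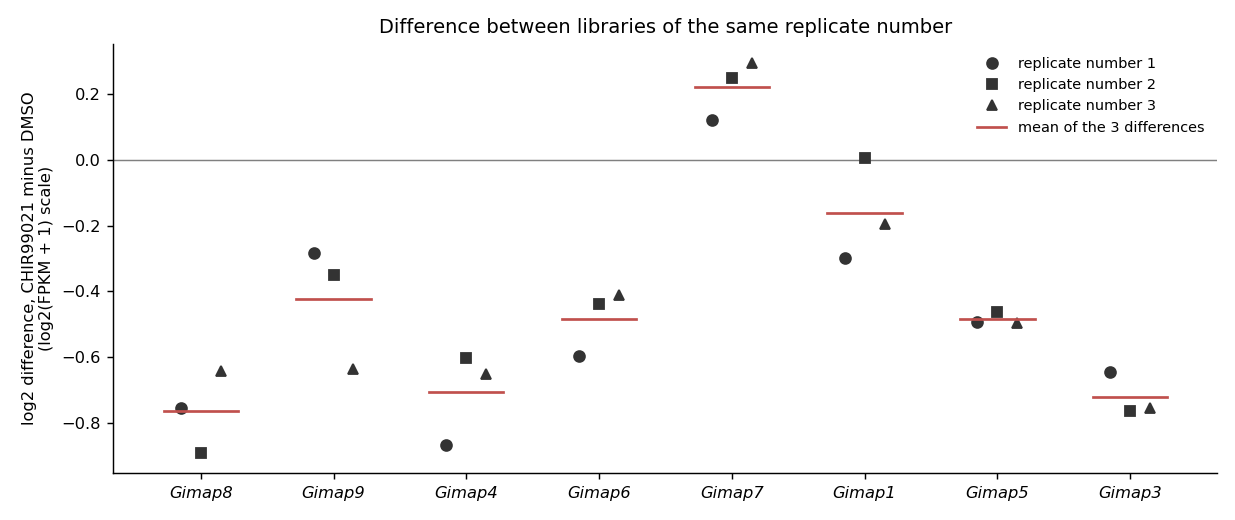
Difference in log2(FPKM + 1) between the CHIR99021 and the DMSO library of the same replicate number, for each Gimap gene in chromosomal order. Points mark replicate numbers 1, 2 and 3, and red lines their means. For 6 genes all 3 points lie below 0, for Gimap7 all 3 lie above, and for Gimap1 they lie on both sides.

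The members thus differed in how their levels were ordered in each group. In CHIR99021 the order by mean was Gimap4, Gimap6, Gimap1, Gimap7, Gimap3, Gimap9, Gimap8 and Gimap5, while in DMSO it was Gimap4, Gimap6, Gimap1, Gimap3, Gimap7, Gimap8, Gimap9 and Gimap5. In CHIR99021, the library ranges of the neighbours Gimap1 and Gimap7 overlapped, as did those of Gimap8 and Gimap5. In DMSO, those of Gimap1 and Gimap3 overlapped, as did those of Gimap8 and Gimap9. Gimap7 and Gimap3 changed places: the level of Gimap7 relative to that of Gimap3 was 1.16, 1.23 and 1.45 in CHIR99021 libraries, against 0.676, 0.603 and 0.696 in DMSO libraries.

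Summed over the 8 genes, the family had 439, 438 and 505 FPKM in CHIR99021 libraries, against 654, 585 and 685 FPKM in DMSO libraries. The mean sum was 28.2% lower in CHIR99021, at 461 ± 38.3 FPKM against 642 ± 51.2 FPKM in DMSO, and no test was made on this sum. Gimap4 made up 29.9 ± 0.736% of the sum in CHIR99021 and 35.1 ± 1.63% in DMSO, and Gimap3 10.5 ± 0.346% and 12.5 ± 0.877%. The share of Gimap7 was 13.4 ± 1.38% in CHIR99021 and 8.20 ± 0.668% in DMSO, and that of Gimap1 was 15.7 ± 0.331% and 12.6 ± 0.653%. Gimap8 had the next share that did not overlap between groups, at 3.17 ± 0.133% in CHIR99021 and 4.00 ± 0.636% in DMSO. The shares of Gimap5, Gimap6 and Gimap9 overlapped between groups. For each of the 5 shares without overlap the two-sided exact permutation test gave p = 0.1, the smallest that 3 against 3 libraries allow, and 0.16 after adjustment over the 8 shares. Shares of 1 sum are not independent of each other.

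**Figure D3:**
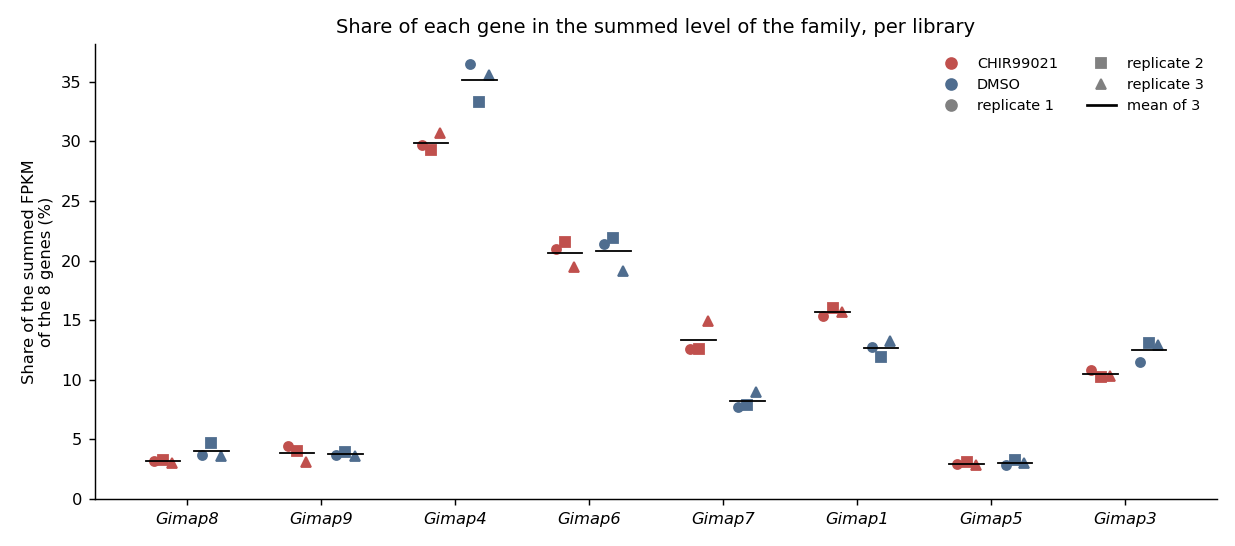
Share of each Gimap gene in the summed FPKM of the 8 genes (percent, axis from 0) in every CHIR99021 library (left of each pair) and DMSO library (right), in chromosomal order. Black lines are means of 3 libraries and symbols mark the replicate number. The shares of Gimap7 and Gimap1 lie higher in all CHIR99021 libraries, and those of Gimap4, Gimap3 and Gimap8 lower.

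The 8 genes lie side by side on chromosome 6, from 48647234 to 48770851 on mm10, a stretch of 123.6 kb. In order, these are Gimap8 (48647234 to 48660875), Gimap9 (48676135 to 48678704), Gimap4 (48684578 to 48692062), Gimap6 (48701583 to 48708244), Gimap7 (48718621 to 48724636), Gimap1 (48739047 to 48743795), Gimap5 (48746197 to 48754200) and Gimap3 (48764464 to 48770851). Gimap6 and Gimap3 are on the minus strand and the others on the plus strand. The members that did not pass without the replicate block, Gimap7 and Gimap1, are neighbours, with genes that fell on both sides of them. With the block Gimap7 rose, while Gimap1 still did not pass. GENCODE M21 also annotates a readthrough gene, Gm28053, over Gimap7, Gimap1 and Gimap5, and an antisense gene, Gimap1os, over part of Gimap1, and neither was analysed here. Of the 50-base stretches of Gimap1 transcripts, 32.45% occur in Gimap1os on the other strand. The libraries were made with a stranded kit, but the sources used here do not say whether the authors' estimates used the strand, so the level of Gimap1 is less certain than the others.

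Flanking genes were compared from a list on chromosome 6, of which 6 were tested. Of these 6, 2 fell and 1 rose, or 4 and 1 with the replicate block. Over all tested entries 13.3% fell and 8.13% rose, or 24.4% and 18.4% with the block. Beyond the Gimap3 end, the membrane protein genes Tmem176b and Tmem176a fell, with log2 changes more negative than that of any Gimap gene. These differences between genes were not tested. Tmem176b (48833812 to 48841374) had 120, 89.7 and 99.1 FPKM in CHIR99021 libraries against 229, 176 and 208 FPKM in DMSO libraries (log2 change -0.98 ± 0.14 SE, adjusted p = 0.00288). Tmem176a (48841483 to 48845364) had 55.3, 36.2 and 34.7 FPKM in CHIR99021 libraries against 125, 92.4 and 102 FPKM in DMSO libraries (log2 change -1.34 ± 0.19 SE, adjusted p = 0.00299). For both, every CHIR99021 library was below every DMSO library. Beyond the Gimap8 end levels were low, and the zinc finger gene Repin1 rose, at 3.84 ± 0.114 FPKM in CHIR99021 and 2.08 ± 0.185 FPKM in DMSO (adjusted p = 0.0117). Its neighbours on that side did not pass. Lrrc61 had 3.17 ± 0.489 FPKM in CHIR99021 and 4.71 ± 0.297 FPKM in DMSO (adjusted p = 0.0509), and Zfp467 had 1.11 ± 0.303 FPKM in CHIR99021 and 2.21 ± 0.661 FPKM in DMSO (adjusted p = 0.0815). Both fell with the replicate block (adjusted p = 0.0223 for Lrrc61 and 0.0341 for Zfp467). The third, Zfp775, had 1.45 ± 0.0497 FPKM in CHIR99021 and 2.09 ± 0.352 FPKM in DMSO (adjusted p = 0.173).

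**Figure D4:**
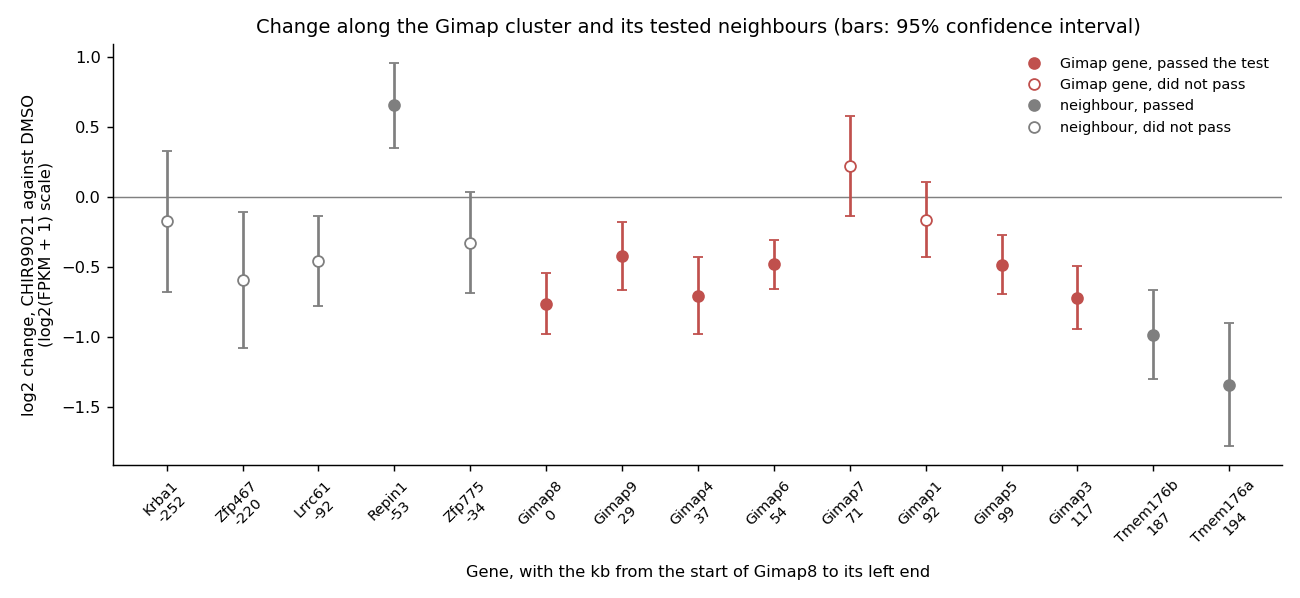
Log2 change of the 8 Gimap genes (red) and of the 7 tested entries within 300 kb of them (grey), ordered along chromosome 6 with distances in kb from the start of Gimap8. Bars are 95% confidence intervals from limma without the replicate block, and filled points passed the test. Gimap7 and Gimap1, which did not pass, lie between Gimap genes that fell, and Tmem176a has the most negative change.

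The start regions of the genes were read for letters bound by factors of lymphocytes, because neighbours in the cluster differed in whether they passed the test. The 250 bases before the RefSeq starts (GRCm38.p6, the assembly of mm10) are shown 5′ to 3′ for a pair of members that fell and for the pair that did not pass. Capitals mark the letters GTAAACA (FOXO), TGTGGT (RUNX), GGAAGT (ETS) and CTTTGA (TCF/LEF), each on either strand.
Gimap4, chr6:48684328-48684577, + strand: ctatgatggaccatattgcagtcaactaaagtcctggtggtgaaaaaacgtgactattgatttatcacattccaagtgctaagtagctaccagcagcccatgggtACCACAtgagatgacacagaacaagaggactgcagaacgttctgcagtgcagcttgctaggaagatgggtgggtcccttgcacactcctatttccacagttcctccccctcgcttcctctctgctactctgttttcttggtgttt
Gimap3, chr6:48770852-48771101, - strand: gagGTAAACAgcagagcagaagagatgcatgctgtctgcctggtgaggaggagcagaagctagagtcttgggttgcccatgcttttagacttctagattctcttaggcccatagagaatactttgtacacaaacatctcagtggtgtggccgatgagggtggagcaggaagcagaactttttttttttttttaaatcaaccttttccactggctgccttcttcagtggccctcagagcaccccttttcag
Gimap7, chr6:48718371-48718620, + strand: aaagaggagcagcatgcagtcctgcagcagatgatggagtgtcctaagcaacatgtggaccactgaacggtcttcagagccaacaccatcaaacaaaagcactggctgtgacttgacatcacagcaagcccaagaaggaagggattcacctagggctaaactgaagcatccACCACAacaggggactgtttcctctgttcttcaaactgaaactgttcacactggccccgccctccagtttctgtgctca
Gimap1, chr6:48738797-48739046, + strand: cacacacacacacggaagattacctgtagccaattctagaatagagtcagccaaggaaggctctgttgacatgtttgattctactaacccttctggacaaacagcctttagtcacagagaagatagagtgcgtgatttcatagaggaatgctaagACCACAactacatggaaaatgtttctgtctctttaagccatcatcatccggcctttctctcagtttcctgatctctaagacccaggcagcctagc
In the full 300-base windows, which add the first 50 bases of the gene, the TCF/LEF letters were found for 2 of 8 genes, Gimap4 and Gimap7, both within those 50 bases, against 16.0% of all 32851 RefSeq windows. The RUNX letters were found for 3 genes (Gimap4, Gimap7 and Gimap1; 16.8% of all windows), and the ETS letters for 4 (Gimap9, Gimap6, Gimap1 and Gimap5; 23.8% of all windows). FOXO letters were found for Gimap3 alone, against 3.6% of all windows. Gimap8, for which 2 windows are listed, held none of them. Members were counted by gene and the background by window, so the counts and the shares are not in the same unit. TCF/LEF, RUNX and ETS letters were thus each present both among genes that fell and among genes that did not pass. This split is that of the fit without the replicate block. Gimap7 rose with the block. A match of letters is not evidence of binding.

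Among genes of related function, other families of immune GTPases fell in part. Of 11 tested genes for guanylate-binding proteins (GBP) and immunity-related GTPases (IRG), 4 fell and 0 rose (median log2 change -0.34), or 5 and 1 with the replicate block. Over all tested entries 13.3% fell and 8.13% rose, or 24.4% and 18.4% with the block. The lower count was 2 without the limit on level and with quantile scaling. It was 1 without CHIR99021 replicate 3 and 2 without CHIR99021 replicate 1, CHIR99021 replicate 2 or DMSO replicate 1, and 1 gene rose without DMSO replicate 2. Irgm1, a regulator of autophagy, had 21.8 ± 1.05 FPKM in CHIR99021 and 32.9 ± 2.28 FPKM in DMSO (adjusted p = 0.00457). Gbp2 had 2.19 ± 0.867 and 8.61 ± 4.24 FPKM in CHIR99021 and DMSO (adjusted p = 0.0123), and the interferon-induced GTPase gene Ifi47 had 15.2 ± 2.21 and 24.7 ± 5.97 FPKM (adjusted p = 0.0408). Irgq had 4.14 ± 0.504 FPKM in CHIR99021 and 6.12 ± 0.585 FPKM in DMSO (adjusted p = 0.0419).

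Partners reported for GIMAP proteins, with apoptosis and autophagy genes near them, fell for 2 of 13 tested members and rose for 0 (median log2 change -0.26), or 6 and 0 with the replicate block. The share of 2 in 13 is close to the 13.3% of all tested entries that fell, while 8.13% rose. With the block 24.4% of all tested entries fell and 18.4% rose, so the share of 6 in 13 is above that of all entries. The 2 that fell without the block were the survival gene Mcl1, at 77.9 ± 3.18 FPKM in CHIR99021 and 123 ± 2.74 FPKM in DMSO (adjusted p = 0.00125), and the autophagosome gene Map1lc3b, at 43.5 ± 3.00 FPKM in CHIR99021 and 64.8 ± 5.97 FPKM in DMSO (adjusted p = 0.0064). The other 4 fell with the replicate block alone. Of these, the GIMAP6 partner gene Gabarapl2 had 41.1 FPKM in CHIR99021 and 52.7 FPKM in DMSO (adjusted p = 0.0843, or 0.00336 with the block), and its relative Gabarap had 177 FPKM in CHIR99021 and 254 FPKM in DMSO (adjusted p = 0.0848, or 0.000943 with the block). The survival gene Bcl2 had 3.53 FPKM in CHIR99021 and 5.36 FPKM in DMSO (adjusted p = 0.0731, or 0.0131 with the block), and its antagonist Bad had 7.90 FPKM in CHIR99021 and 11.7 FPKM in DMSO (adjusted p = 0.134, or 0.00814 with the block). Gsk3b did not pass in either fit, at 4.26 FPKM in CHIR99021 and 5.32 FPKM in DMSO (adjusted p = 0.209, or 0.0821 with the block).

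Genes of the resting and naive state of lymphocytes fell for 7 of 18 tested members and rose for 0 (median log2 change -0.40). With the replicate block 12 fell and 0 rose. Over all tested entries 13.3% fell and 8.13% rose, or 24.4% and 18.4% with the block. Leaving out 1 library gave lower counts of 5 to 9. Klf3 (0.25), Foxo1 (0.09) and S1pr1 (0.05) had positive log2 changes and passed in neither fit. Bach2, which encodes a transcriptional repressor that keeps B cells from becoming plasma cells, had 2.15, 1.61 and 1.29 FPKM in CHIR99021 libraries against 9.45, 9.56 and 8.30 FPKM in DMSO libraries (adjusted p = 0.000479). Btg1, which encodes an antiproliferative protein, had 50.4, 40.7 and 38.8 FPKM in CHIR99021 libraries against 121, 77.0 and 94.1 FPKM in DMSO libraries (adjusted p = 0.00388). For both, every CHIR99021 library was below every DMSO library. Ccng2 and Pik3ip1 were the others with the smallest adjusted p. The log2 changes of Bach2 (-1.92), Klf2 (-1.79, adjusted p = 0.00621), Ccng2 (-1.37), Pik3ip1 (-1.25) and Btg1 (-1.13) were all more negative than that of Gimap8 (-0.76), and these differences between genes were not tested. Klf2, which encodes a factor of lymphocyte quiescence, had 32.7, 26.5 and 23.3 FPKM in CHIR99021 libraries against 152, 59.2 and 99.8 FPKM in DMSO libraries.

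**Figure D5:**
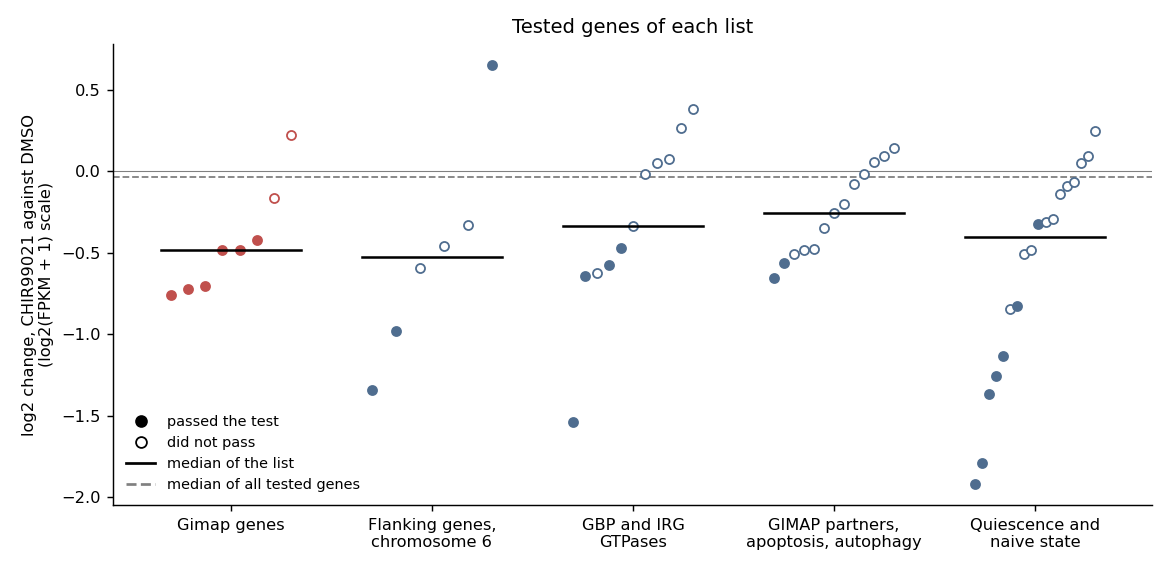
Log2 change of every tested gene in the Gimap family and in 4 gene lists, with filled points for genes that passed the test. Solid lines are list medians and the dashed line is the median of all tested entries, -0.04. The Gimap median lies at -0.48, and the quiescence list spreads down to -1.92.

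Over the 6 libraries, the genes whose centred log2 levels were most like those of Gimap4, among 6980 entries outside the family with a mean of at least 5 FPKM, were Scd1, Samhd1, Icam2, Mta3 and Bloc1s1. Their root-mean-square differences from Gimap4 were 0.0483, 0.0598, 0.0646, 0.0659 and 0.0676 on the log2 scale. Within the family Gimap3 was the closest, at 0.0994, with 35 of the 6980 entries closer. Gimap7 was the farthest, at 0.473, with 4757 entries closer.

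GIMAP genes are also active in T cells, NK cells and endothelial cells, so markers of these and of other cells were read. The T cell genes Cd3e and Cd8b1 were listed at 0 in all 6 libraries, and Cd3d, Cd4 and Cd8a did not exceed 0.0898 FPKM in CHIR99021 libraries and 0.293 FPKM in DMSO libraries. Cd3g reached 0.703 FPKM in CHIR99021 replicate 1 and 1.15 FPKM in DMSO replicate 1. The 14 T cell markers summed to 50.2 to 65.9 FPKM in CHIR99021 and 63.1 to 91.4 FPKM in DMSO. Among the 5 tested, 1 (Zap70) rose and 2 (Lat and Thy1) fell. With the replicate block 1 rose and 3 fell, as Cd2 fell too. Most of the sum came from Cd2 and Lck. Cd2 had 31.6 ± 9.46 FPKM in CHIR99021 and 48.3 ± 10.9 FPKM in DMSO (adjusted p = 0.0936, or 0.0039 with the block). Lck had 12.2 ± 1.36 FPKM in CHIR99021 and 14.4 ± 0.988 FPKM in DMSO. Thy1 had 5.26 FPKM in CHIR99021 and 13.5 FPKM in DMSO, and Zap70 had 5.35 FPKM in CHIR99021 and 0.793 FPKM in DMSO. The 6 NK cell markers summed to at most 0.0449 FPKM in CHIR99021 and 0.0866 FPKM in DMSO. The 6 endothelial markers summed to 5.85 to 7.07 FPKM in CHIR99021 and 16.4 to 22.8 FPKM in DMSO, nearly all from Pecam1, while Kdr and Emcn were listed at 0 in every library. Pecam1, the 1 marker tested, fell with either fit, at 6.40 FPKM in CHIR99021 and 19.5 FPKM in DMSO (adjusted p = 0.00085). Cdh5 had 0.224 FPKM in CHIR99021 and 0.774 FPKM in DMSO, and Tek and Tie1 did not exceed 0.0558 FPKM. The 6 myeloid markers summed to 1.45 to 5.02 FPKM in CHIR99021 and 1.72 to 2.37 FPKM in DMSO. The 6 fibroblast markers, which the feeder cells can carry, summed to 47.4 to 231 FPKM in CHIR99021 and 54.5 to 296 FPKM in DMSO, with 0 of 4 tested called, or 3 lower with the replicate block. Col1a1, the largest part, had 165, 65.3 and 33.3 FPKM in CHIR99021 replicates 1, 2 and 3. In DMSO replicates 1, 2 and 3 it had 202, 69.2 and 36.2 FPKM, so it followed the replicate number in both groups. Of the 5 B cell markers 5 fell, with either fit. The 6 plasma cell markers summed to 479 to 598 FPKM in CHIR99021 and 492 to 770 FPKM in DMSO. Most of this sum came from Igj (289 FPKM in CHIR99021 and 452 FPKM in DMSO) and Xbp1 (153 and 129 FPKM). Of these 6 markers 3 rose and 0 fell, or 4 and 1 with the replicate block. Those that rose were Prdm1 (16.2 FPKM in CHIR99021 and 6.27 FPKM in DMSO), Irf4 (82.1 and 30.5 FPKM) and Bhlha15 (9.48 and 3.57 FPKM). With the block Xbp1 rose too and Igj fell, while Sdc1 passed in neither fit. Beside these marker counts, 13.3% of all tested entries fell and 8.13% rose, or 24.4% and 18.4% with the block. The part of these markers in the changes of the Gimap genes was not tested.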

How the data were processed

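The submitters' processing notes name cutadapt (1.12), TopHat2 (2.1.1), Cufflinks (2.2.1) and build mm10, and the sources used here name no annotation. Per the file headers, each table deposited by the authors holds gene FPKM of 1 library with confidence limits, and every status was OK. For the members these limits lay 4.68% to 17.9% from the value. The number of fragments per library is unknown, so no count test was run. Summed FPKM ran from 527290 to 617449 per library, and nothing was rescaled. Gene spans are from the tables, with starts counted from 1.

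FPKM were tested as log2(FPKM + 1) with limma 3.58.1 in R 4.3.3 (variance trend, two-sided), after a check on simulated data. Figures were drawn with matplotlib 3.10.9, and all else ran in Python 3.11.15 (numpy 2.4.6, pandas 2.3.3). The design text calls the libraries biological triplicates. The 8 members, the lists and the tests were chosen with earlier results of these data known. All members are named, with every tested flanking gene, up to 4 genes per list with the smallest adjusted p under 0.05, and the 5 genes most like the most abundant member. Gabarapl2, Gabarap, Bcl2, Bad, Gsk3b, Klf2, Klf3, Foxo1, S1pr1 and the cell type markers given by name were chosen after their values were seen. Krba1 appears in a figure as a tested neighbour outside the list. Of 18 genes listed as flanking, 16 were in the tables and 11 of them on chromosome 6. Libraries with the same number correlated in their deviations from group means at 0.535, 0.490 and 0.517, and with different numbers at -0.352 to -0.140. Other pseudocounts, scalings, filters and sets of libraries were tried. Some genes of the lists are not reported here, and the counts and sums leave them out.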

Additional observations from a re-analysis of the deposited data

How the results depend on the processing

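In 13 other settings, Gimap3, Gimap4, Gimap5, Gimap6 and Gimap8 kept their call and direction, with log2 changes between -0.81 and -0.39. Gimap1 passed in 0 of the 13, and Gimap7 only with the replicate block (0.22, adjusted p = 0.0264), where 1 member rose. Gimap9 passed in 9 of the 13. Leaving out 1 library gave Gimap9 changes of -0.50 to -0.34 (adjusted p = 0.0270 to 0.0944), 5 to 6 members lower, and 1061 to 1983 entries changed in all, against 2164 with every library. The lowest such counts came without CHIR99021 replicate 3 (1061), DMSO replicate 3 (1310) and CHIR99021 replicate 2 (1410). The replicate block gave 4321 changed entries. Higher calls were 37.9% of all calls with FPKM as deposited, 48.7% with upper-quartile and 51.2% with quantile scaling, but every tested Gimap gene kept its direction and its side of the threshold under both. For lists, counts of lower GBP and IRG genes ranged from 1 to 5. The block raised the lower counts of the flanking genes (4), the partners (6) and the quiescence genes (12). It also raised the share of all tested entries that fell, from 13.3% to 24.4%. The block changed no other call of a Gimap gene. The depth is unknown, and without the block the 95% intervals of Gimap1 and Gimap7 include 0.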
